A study of Mus musculus and Homo sapiens with 20 samples.

Results

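Collagens and the genes that assemble, cross-link and remodel the extracellular matrix were followed through HSP90 inhibition in 3 cell lines. The 43 genes were taken by symbol, ignoring case, from tables that list 43626 genes in each mouse line and 63568 in the human line. They are the fibrillar collagens COL1A1, COL1A2, COL3A1, COL5A1, COL5A2, COL5A3 and COL11A1, the network and beaded-filament collagens COL4A1, COL4A2, COL8A1, COL6A1, COL6A2 and COL6A3, and the other collagens COL7A1, COL12A1, COL16A1 and COL18A1. The matrix glycoproteins are FN1, FBN1, FBLN1, FBLN2, SPARC, THBS1, THBS2, TNC and POSTN, and the small leucine-rich proteoglycans are LUM, DCN and BGN. The enzymes and chaperones are LOX, LOXL1, LOXL2, LOXL3, PLOD1 and PLOD2, SERPINH1 and BMP1, and the turnover genes are MMP2, MMP14, MMP19, TIMP1, TIMP2 and TIMP3.

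RNA-seq compared 3 Control with 3 HSP90i libraries in each of mouse embryonic fibroblasts (MEF), the mouse blood precursor line HPC-7 and the human chronic myeloid leukaemia line K562. HSP90i stands for 16 h of NVP-AUY922, a compound that occupies the ATP-binding pocket of the HSP90 chaperones, at 200 nM in MEF, 50 nM in HPC-7 and 300 nM in K562. Control libraries are those whose count columns carry the name of the solvent, DMSO. No genotype, strain, clone or passage is given in the labels, line and dose changed together, and no sample of an earlier time is included.

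Fibroblasts make the fibrous matrix of connective tissue. A procollagen chain is hydroxylated and folded into a triple helix in the endoplasmic reticulum, helped by lysyl hydroxylases (the PLOD genes) and by the collagen chaperone HSP47 (SERPINH1). Outside the cell BMP1 trims the propeptides, lysyl oxidases (LOX and its relatives) cross-link the fibrils, glycoproteins such as fibronectin and fibrillin organise them, and matrix metalloproteinases and their TIMP inhibitors set their turnover. Blood cells normally make little of this matrix.

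Library totals ran from 10542305 to 22872539 counts in MEF, from 10131491 to 16859394 in HPC-7 and from 7936066 to 10950573 in K562. Whether replicates came from separate cultures is not stated, and p-values therefore reflect only how far these libraries differ among themselves, which could be technical. In MEF, Control replicate 3 stood apart from the other Control libraries (chi-square per gene 10.6 and 10.5, against 3.29 between those). In HPC-7 the HSP90i libraries differed more among themselves (8.54 to 15.0) than the Control libraries (2.31 to 4.75). In MEF, 12 of 13 fibroblast and mesenchymal markers reached 1 CPM (counts scaled to the size of the library), and their summed level was 8255 to 8678 CPM in Control and 5934 to 6136 CPM in HSP90i libraries. Tcf21 was the marker at 0. The mean levels of Vim (4951 to 3282 CPM) and S100a4 (1925 to 1294 CPM) carried most of that sum. Prrx1 (345 to 198 CPM), Pdgfrb (250 to 159 CPM), Cdh11 (255 to 161 CPM), Twist2, Thy1, Nt5e and Cdh2 also fell. Ddr2 (368 to 654 CPM) and Pdgfra (59.8 to 81.9 CPM) rose, and Twist1 hardly changed (60.9 to 63.1 CPM). Summed blood progenitor markers were at 228 to 274 CPM in Control and 197 to 214 CPM in HSP90i libraries (5 of 11 at 1 CPM or more, led by Cd34 at 181 CPM in Control), and erythroid and megakaryocyte markers at 7.48 to 9.70 and 20.3 to 22.1 CPM (1 of 7). Summed epithelial markers were at 7.0 to 7.61 CPM in Control and 18.8 to 19.7 CPM in HSP90i libraries (3 of 8 at 1 CPM or more, Cldn3 and Cldn4 at 0, Cdh1 from 0.324 to 4.53 CPM). Summed muscle markers were at 53.4 to 54.9 and 67.7 to 78.3 CPM (1 of 7, Myod1 and Myf5 at 0), macrophage markers at 17.2 to 18.8 and 13.3 to 15.3 CPM (3 of 7, with Cd14 lower and Cd68 and Csf1r higher) and endothelial markers at 0.474 to 0.836 and 0.929 to 1.30 CPM (0 of 6). All 11 blood progenitor markers reached 1 CPM in HPC-7 and 9 of 11 in K562. In K562 their sum was 1061 to 1092 CPM in Control and 754 to 793 CPM in HSP90i libraries. Of these, GATA2 (133 to 36.7 CPM), RUNX1 (209 to 103 CPM) and GFI1B (45.9 to 22.3 CPM) were called lower, and no other was called. The erythroid marker GATA1 was also called lower in K562 (199 to 107 CPM). Summed epithelial markers in K562 were at 519 to 893 CPM in Control and 628 to 697 CPM in HSP90i libraries, with none called. The part that other cells play in the results was not tested. In bulk RNA, fewer cells of a type and less RNA per cell cannot be told apart. Gene lengths were not used here, so levels are compared between libraries for the same gene and not between genes.

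Promoter sequence was read for the mouse members, since the fibrillar collagens moved together in MEF and SERPINH1 and PLOD1 moved in more than 1 line. RefSeq (GRCm38.p6) gave a window from 250 bases before to 50 bases after the start for 28 of the 43 members. Col1a2 and Col5a3, fibrillar collagens with a small and the largest change of the members in MEF, are printed to show the CCAAT letters (in capitals), the motif read by the factor NF-Y, which occurs in many collagen promoters. Both windows are 130 bases ending 1 base before the start, Col1a2 at chr6:4505488-4505617 on the plus strand and Col5a3 at chr9:20815068-20815197 on the minus strand. The third is the stretch of Plod1 at chr4:147936727-147936746, minus strand, 31 to 50 bases past its start, with the heat shock element core in capitals.
Col1a2: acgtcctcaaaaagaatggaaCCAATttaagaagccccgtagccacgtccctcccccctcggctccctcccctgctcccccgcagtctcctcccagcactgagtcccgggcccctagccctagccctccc
Col5a3: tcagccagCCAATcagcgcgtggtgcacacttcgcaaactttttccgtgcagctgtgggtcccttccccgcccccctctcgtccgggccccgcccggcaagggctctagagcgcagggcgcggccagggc
Plod1: cggccccgtcgcGAAGTTTC
The printed CCAAT letters start 109 bases before the Col1a2 start and 122 bases before the Col5a3 start. The whole Col1a2 window holds 2 matches. The match not printed reads ATTGG, the same letters on the opposite strand, and lies directly after the printed stretch.

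Searched on both strands, CCAAT occurred in 13 of the 28 member windows (46.4%), against 41.1% of 27025 mouse genes with at least 1 window. The letters GAANNTTC or TTCNNGAA, the core read by heat shock factors, occurred in 1 of the 28 (Plod1), against 17.0% of those genes. GGAATG, a TEAD motif, occurred in 4 of the 28 (14.3%: Col18a1, Col3a1, Col6a2 and Timp1), against 16.6%. The CArG box, read by the serum response factor, occurred in 0 of the 28, against 1.81% of those genes. The Serpinh1 window held none of the heat shock core letters. These are matches of letters and not measured binding, and the 15 members without a window were not searched.

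In MEF, 42 of the 43 genes were tested, and 22 rose and 15 fell with HSP90i (edgeR's quasi-likelihood test, Benjamini-Hochberg adjusted p below 0.05 over all genes). Over all 12340 genes tested, 35.1% were called higher and 38.2% lower, so most genes were called in this line. The members' median log2 fold change was 0.25, against −0.01 over all genes, and their values ran from −1.96 (Timp3) to 2.75 (Col5a3). A call with at least a 2-fold change was made for 8 members upward and 6 downward, where 11.2% and 13.1% of all genes made it. The Control and HSP90i libraries did not overlap for 37 of the 42, against 76.2% of all genes. Lum was not tested, with 30 counts in the 6 libraries together. Members' counts made up 4.0% to 4.20% of each Control library and 4.73% to 4.89% of each HSP90i library, and the collagens alone 1.97% to 2.03% and 2.82% to 2.93%. The collagen share was therefore higher in each HSP90i library than in any Control library, while the summed fibroblast markers, mostly Vim and S100a4, were lower in each. Glycoproteins, cross-linkers and turnover genes moved in both directions.

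**Figure D1:**
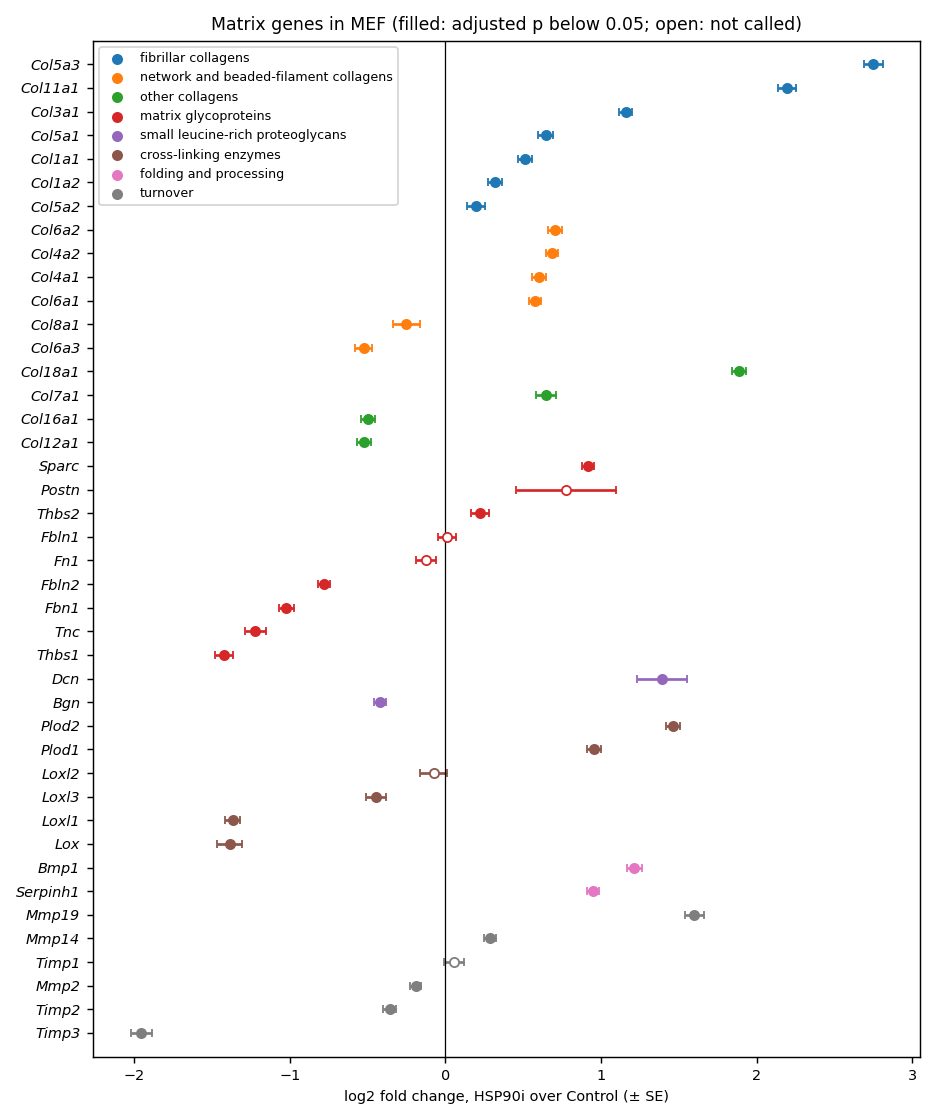
The horizontal axis is the log2 fold change of HSP90i over Control in MEF with its SE (n = 3 per group) and each row is 1 of the 42 tested genes, coloured by role. The fibrillar collagens all lie right of 0, from 0.20 (Col5a2) to 2.75 (Col5a3), while Lox, Loxl1, Thbs1, Tnc, Fbn1 and Timp3 lie left of −1.

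All 7 fibrillar collagens rose, with a median log2 fold change of 0.65. Col1a1 and Col1a2, the chains of type I collagen, the main fibre of skin, tendon and bone, both rose. Col1a1 measured 5765, 5732 and 5594 CPM in the Control libraries and 8286, 8219 and 7852 CPM in the HSP90i libraries, a log2 fold change of 0.51 ± 0.04 (adjusted p = 9.33e-06). Col1a2 measured 5348, 5563 and 5585 CPM in the Control libraries and 6718, 7043 and 6817 CPM in the HSP90i libraries, a log2 fold change of 0.32 ± 0.04 (adjusted p = 0.000184). For both chains every HSP90i library lay above every Control library.

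Col3a1, the type III chain that mixes with type I in stretchable tissue, rose by more than either. It measured 1536, 1636 and 1598 CPM in the Control libraries and 3437, 3589 and 3619 CPM in the HSP90i libraries, a log2 fold change of 1.16 ± 0.04 (adjusted p = 7.58e-08). Col5a2, a type V chain that helps start type I fibrils, measured 1225, 1315 and 1352 CPM in the Control libraries and 1389, 1539.7 and 1529 CPM in the HSP90i libraries, a log2 fold change of 0.20 ± 0.06 (adjusted p = 0.0122). Its groups did not overlap but lay close, and without HSP90i replicate 2 its adjusted p was 0.0545.

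The remaining 3 fibrillar chains can be partners in the same fibrils. Col5a1, the partner of Col5a2, went from 738 ± 33.3 to 1155 ± 37.1 CPM (SD, n = 3; 0.65 ± 0.05 on the log2 scale). Col11a1, a fibril-nucleating chain best known from cartilage, went from 160.4 ± 11.2 to 734 ± 22 CPM (SD, n = 3; 2.19 ± 0.06 on the log2 scale). Col5a3, the least widely expressed type V chain, measured 24.3, 25.5 and 25 CPM in the Control libraries and 161, 178 and 164 CPM in the HSP90i libraries, a log2 fold change of 2.75 ± 0.06 (adjusted p = 9.74e-09), the widest rise of the 43 genes in MEF. Its 3 HSP90i values were all above 160 CPM and its 3 Control values all below 26 CPM.

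**Figure D2:**
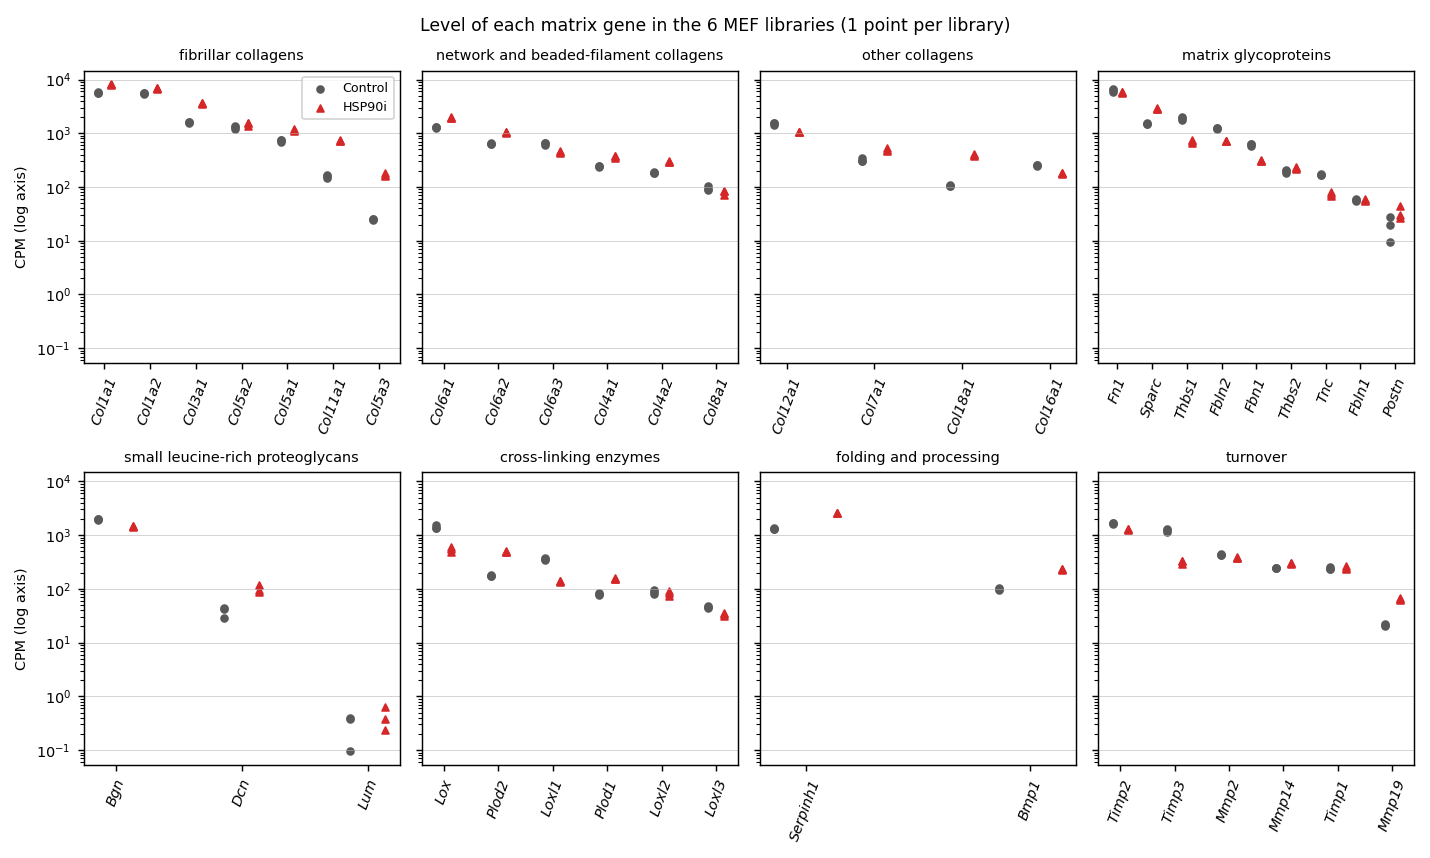
Each point is 1 MEF library (circles Control, triangles HSP90i), the vertical axis is the level in CPM on a log scale, and each panel is 1 role with all of its members, Lum included. Col5a3 and Col11a1 show wide gaps between the groups, Fn1, Fbln1, Loxl2 and Timp1 show nearly superimposed groups, and Postn shows Control libraries from 9.51 to 27.2 CPM.

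Of the 6 network and beaded-filament collagens, 4 rose and 2 fell, and the 3 chains of type VI collagen did not move one way. Type VI forms beaded microfilaments around cells from an α1, an α2 and a longer α3 chain. Col6a1 measured 1271, 1326 and 1331 CPM in the Control libraries and 1927, 1979 and 1958 CPM in the HSP90i libraries, a log2 fold change of 0.58 ± 0.04. Col6a2 measured 623, 661 and 643 CPM in the Control libraries and 1007, 1065 and 1067 CPM in the HSP90i libraries, a log2 fold change of 0.70 ± 0.04. Col6a3 measured 611, 665 and 650.1 CPM in the Control libraries and 471, 446 and 422 CPM in the HSP90i libraries, a log2 fold change of −0.52 ± 0.05. The α1 and α2 chains were thus higher in every HSP90i library, and the α3 chain lower in every one (adjusted p = 1.98e-06, 1.07e-06 and 2.88e-05).

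Type IV collagen is the sheet-forming collagen of basement membranes, and its α1 and α2 chains both rose. Col4a1 measured 236, 242 and 249.03 CPM in the Control libraries and 353, 376 and 375 CPM in the HSP90i libraries, a log2 fold change of 0.60 ± 0.04 (adjusted p = 3.61e-06). Col4a2 went from 185 ± 1.78 to 297 ± 5.33 CPM (SD, n = 3; 0.68 ± 0.04 on the log2 scale). Col8a1, a short-chain network collagen, fell by a small amount, from 93.7 ± 8.52 to 78.9 ± 7.60 CPM (SD, n = 3; −0.25 ± 0.09 on the log2 scale, adjusted p = 0.03). That call was lost without Control replicate 1 (adjusted p = 0.0567), Control replicate 2 (0.117) or HSP90i replicate 1 (0.108), and with upper quartile factors (−0.15, adjusted p = 0.139).

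The 4 other collagens split evenly, 2 higher and 2 lower. Col18a1, a basement membrane collagen whose C-terminal fragment is endostatin, measured 107, 110.0 and 104 CPM in the Control libraries and 395, 407 and 384 CPM in the HSP90i libraries, a log2 fold change of 1.89 ± 0.05 (adjusted p = 1.34e-08). Col7a1, the anchoring-fibril collagen below the epidermis, measured 301, 343 and 304 CPM in the Control libraries and 465, 525 and 493 CPM in the HSP90i libraries, a log2 fold change of 0.65 ± 0.07. Both were higher in all 3 HSP90i libraries.

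Col12a1 and Col16a1 are fibril-associated collagens that sit on the surface of fibrils. Col12a1 measured 1420.3, 1549 and 1529.5 CPM in the Control libraries and 1042, 1055 and 1034 CPM in the HSP90i libraries, a log2 fold change of −0.52 ± 0.04 (adjusted p = 8.63e-06). Col16a1 measured 243, 258 and 261 CPM in the Control libraries and 181, 182 and 176 CPM in the HSP90i libraries, a log2 fold change of −0.50 ± 0.05 (adjusted p = 1.34e-05). Their HSP90i values lay below all Control values.

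Of the 9 matrix glycoproteins, 2 rose, 4 fell and 3 were not called (median −0.12). Fn1, fibronectin, the adhesive scaffold on which fibrils are laid, measured 5748, 6632 and 6491 CPM in the Control libraries and 5845, 5904 and 5559.8 CPM in the HSP90i libraries, a log2 fold change of −0.12 ± 0.06 (adjusted p = 0.0988). Sparc, a collagen-binding glycoprotein that acts in procollagen processing, measured 1509.9, 1504 and 1522 CPM in the Control libraries and 2801, 2903 and 2872 CPM in the HSP90i libraries, a log2 fold change of 0.92 ± 0.04 (adjusted p = 1.09e-07). Fibronectin was thus not called, while Sparc was higher in every HSP90i library.

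Thbs1, thrombospondin 1, an adhesion-modulating protein that can activate latent TGF-beta, measured 1783, 2002 and 1894 CPM in the Control libraries and 665, 739 and 717 CPM in the HSP90i libraries, a log2 fold change of −1.42 ± 0.06 (adjusted p = 1.11e-07). Fbln2, fibulin 2, which binds fibronectin and elastic fibres, measured 1216, 1238 and 1233 CPM in the Control libraries and 729, 713 and 706 CPM in the HSP90i libraries, a log2 fold change of −0.78 ± 0.04 (adjusted p = 2.21e-07). Both fell without overlap between the groups. The related thrombospondin Thbs2 rose slightly, from 196 ± 10.4 to 229 ± 10.7 CPM (SD, n = 3; 0.22 ± 0.06 on the log2 scale, adjusted p = 0.00629).

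Fbn1, fibrillin 1, the backbone of microfibrils, fell from 620.5 ± 30.6 to 305 ± 6.18 CPM (SD, n = 3; −1.02 ± 0.05 on the log2 scale). Tnc, tenascin C, a glycoprotein made in growth and repair, fell from 172 ± 3.22 to 73.6 ± 6.66 CPM (SD, n = 3; −1.22 ± 0.07 on the log2 scale). Fbln1 was not called, at 57 ± 2.42 CPM in Control and 57.5 ± 2.41 CPM in HSP90i libraries (SD, n = 3; adjusted p = 0.848). Postn, periostin, measured 27.2, 19.8 and 9.51 CPM in Control and 30.2, 26.5 and 43.9 CPM in HSP90i libraries (0.77 ± 0.32 on the log2 scale, adjusted p = 0.0548). Its groups overlapped, and it was called without Control replicate 1 (1.21 on the log2 scale, adjusted p = 0.00737) and, at 0.50, without Control replicate 3 (adjusted p = 0.0280).

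The small leucine-rich proteoglycans coat collagen fibrils and limit their width. Bgn, biglycan, measured 1916, 2001 and 1995 CPM in the Control libraries and 1439, 1478 and 1503 CPM in the HSP90i libraries, a log2 fold change of −0.42 ± 0.04 (adjusted p = 1.78e-05). Dcn, decorin, measured 43.5, 42.1 and 28.5 CPM in the Control libraries and 95.3, 89.2 and 118 CPM in the HSP90i libraries, a log2 fold change of 1.39 ± 0.16 (adjusted p = 5.97e-05). Biglycan was lower and decorin higher in every HSP90i library. Lum, lumican, had 9, 4 and 1 counts in the Control and 5, 4 and 7 counts in the HSP90i libraries, too few to test. Dcn and Lum lie side by side on chromosome 10 (97479500 to 97518163 and 97565501 to 97572703, GRCm38.p6), 47337 bases apart.

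The 6 cross-linking genes divided by enzyme family: of the 4 lysyl oxidases 3 fell and 1 was not called, and the lysyl hydroxylases Plod1 and Plod2 rose. Lox, the founding lysyl oxidase, which oxidises lysines of collagen and elastin outside the cell, measured 1344, 1533 and 1362 CPM in the Control libraries and 485, 547 and 591 CPM in the HSP90i libraries, a log2 fold change of −1.39 ± 0.08 (adjusted p = 8.03e-07). Loxl1, the relative best known for elastic fibres, measured 368, 339 and 363 CPM in the Control libraries and 142, 135 and 137 CPM in the HSP90i libraries, a log2 fold change of −1.37 ± 0.05 (adjusted p = 5.61e-08). Both fell to well under every Control value.

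Loxl3 fell less, from 46.2 ± 1.99 to 33.8 ± 1.87 CPM (SD, n = 3; −0.44 ± 0.06 on the log2 scale, adjusted p = 0.000262). Loxl2, which cross-links type IV collagen, was not called, at 86.8 ± 7.69 CPM in Control and 82.4 ± 7.48 CPM in HSP90i libraries (SD, n = 3; adjusted p = 0.456). Plod2, the hydroxylase of telopeptide lysines, measured 171, 184 and 173 CPM in the Control libraries and 475, 497 and 479 CPM in the HSP90i libraries, a log2 fold change of 1.46 ± 0.05 (adjusted p = 3.26e-08). Plod1, which hydroxylates lysines within the helix, measured 79.3, 77.8 and 82.3 CPM in the Control libraries and 154, 153 and 158 CPM in the HSP90i libraries, a log2 fold change of 0.96 ± 0.05 (adjusted p = 2.41e-07). Plod1 and Plod2 were thus higher in all HSP90i libraries, and Lox, Loxl1 and Loxl3 lower. The other lysyl hydroxylase gene, Plod3, which is not among the 43, fell from 197 ± 3.38 to 165 ± 1.11 CPM (SD, n = 3; −0.26 ± 0.04 on the log2 scale, adjusted p = 0.00041).

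Both genes of folding and processing rose. Serpinh1, the procollagen chaperone HSP47 and a heat shock gene, measured 1315, 1315 and 1349 CPM in the Control libraries and 2529, 2577 and 2581 CPM in the HSP90i libraries, a log2 fold change of 0.95 ± 0.04 (adjusted p = 8.8e-08). Bmp1, the procollagen C-proteinase, which also activates lysyl oxidase, measured 99.1, 103 and 94.1 CPM in the Control libraries and 231, 234 and 224 CPM in the HSP90i libraries, a log2 fold change of 1.22 ± 0.05 (adjusted p = 1.09e-07). No HSP90i library overlapped a Control library for either gene.

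Of the 6 turnover genes, 2 rose, 3 fell and 1 was not called. Timp3, the matrix-bound inhibitor of metalloproteinases, fell furthest of the 43 genes. It measured 1155, 1274 and 1268 CPM in the Control libraries and 289, 328 and 336 CPM in the HSP90i libraries, a log2 fold change of −1.96 ± 0.07 (adjusted p = 5.21e-08). Timp2, which also takes part in activating pro-MMP2, measured 1649, 1631 and 1703 CPM in the Control libraries and 1320.3, 1314 and 1253 CPM in the HSP90i libraries, a log2 fold change of −0.36 ± 0.04 (adjusted p = 5.65e-05). Timp1 was not called, at 239 ± 10.3 CPM in Control and 248 ± 20.7 CPM in HSP90i libraries (SD, n = 3; adjusted p = 0.469).

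Among the proteinases, Mmp14, a membrane-bound collagenase that activates pro-MMP2, measured 246, 246 and 247 CPM in the Control libraries and 304, 307 and 289 CPM in the HSP90i libraries, a log2 fold change of 0.29 ± 0.04 (adjusted p = 0.000248). Mmp2, gelatinase A, measured 425, 430.1 and 443 CPM in the Control libraries and 385, 376 and 375 CPM in the HSP90i libraries, a log2 fold change of −0.19 ± 0.04 (adjusted p = 0.00178). The Mmp2 difference was small, and with upper quartile scaling it was −0.09 with an adjusted p of 0.128. Mmp19, a stromal metalloproteinase, rose from 21.3 ± 0.801 to 64.5 ± 2.31 CPM (SD, n = 3; 1.60 ± 0.06 on the log2 scale), so the widest changes among the turnover genes were a rise of Mmp19 and a fall of Timp3.

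The ratio of paired collagen transcripts was taken within each MEF library for 5 pairs. Of these, 4 pairs are chains of the same collagen type, while Col3a1 and Col5a2 are neighbouring genes of different types, since type III collagen is made of Col3a1 chains alone. The ratio of Col1a1 to Col1a2 counts was 1.08, 1.03 and 1.0 in Control and 1.23, 1.17 and 1.15 in HSP90i libraries, a log2 difference of 0.19 (0.16 to 0.22 with any 1 library left out). The ratio of Col5a1 to Col5a2 was 0.571, 0.580 and 0.556 against 0.826, 0.776 and 0.733, a log2 difference of 0.45 (0.41 to 0.49). The ratio of Col3a1 to Col5a2 was 1.25, 1.24 and 1.18 against 2.47, 2.33 and 2.37, a log2 difference of 0.96 (0.94 to 0.98). These 3 ratios were higher in every HSP90i library.

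The ratio of Col6a1 to Col6a2 was 2.04, 2.01 and 2.07 in Control and 1.91, 1.86 and 1.84 in HSP90i libraries, a log2 difference of −0.13 (−0.14 to −0.11). The ratio of Col4a1 to Col4a2 was 1.29, 1.31 and 1.34 against 1.21, 1.25 and 1.26, a log2 difference of −0.08 (−0.09 to −0.06). Both were lower in every HSP90i library. Each of the 5 two-sided exact permutation tests gave p = 0.10, the smallest that 3 against 3 libraries allow, and 0.10 after Benjamini-Hochberg adjustment over the 5 pairs. The counts are not divided by transcript length, so the ratios are not numbers of chains. Of the 5 pairs, 3 are neighbours in the mouse genome (GRCm38.p6). Col3a1 (chromosome 1, 45311538 to 45349706) lies 24624 bases from Col5a2 (45374331 to 45503282), and Col6a2 (chromosome 10, 76595756 to 76623630) lies 85161 bases from Col6a1 (76708792 to 76726044). Col4a1 (chromosome 8, 11198423 to 11312889) and Col4a2 (11312805 to 11449287) overlap by 85 bases at their starts, where reads cannot be assigned without strand.

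**Figure D3:**
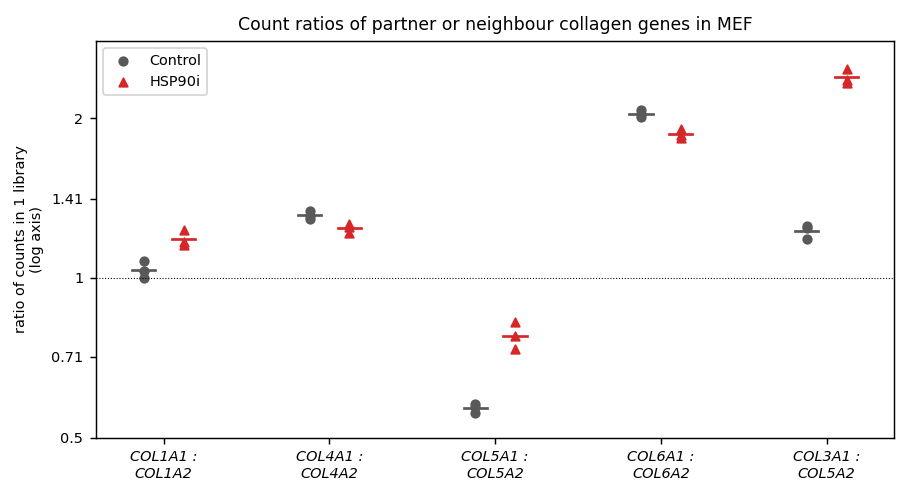
The vertical axis is the ratio of the 2 chains' counts within a MEF library on a log scale, with 1 point per library and the group mean as a bar, for 5 pairs of collagen chains. The Col3a1 to Col5a2 ratio separates the groups most, at 1.18 to 1.25 in Control against 2.33 to 2.47 in HSP90i libraries.

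Lists of further matrix genes were read in MEF against the same background of 35.1% called higher and 38.2% lower. Of 10 other collagen genes tested, 7 rose and 1 fell (median log2 fold change 0.53). The widest changes among the more abundant ones were Col2a1, the cartilage fibril chain (0.52 ± 0.06), and the basement membrane chains Col4a6 (0.39 ± 0.05) and Col4a5 (0.38 ± 0.07). Of 26 genes of collagen hydroxylation, folding, export and trimming, 15 rose and 6 fell (median 0.18). Leprel1, a prolyl 3-hydroxylase, rose by 1.53 ± 0.09, Fkbp14, a prolyl isomerase of the endoplasmic reticulum, by 1.13 ± 0.07, and Pdia3, a disulphide isomerase, by 1.12 ± 0.06 on the log2 scale.

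Of 18 laminin and basement membrane genes, 11 rose and 5 fell (median 0.50). Fras1, a basement membrane adhesion protein, rose by 2.63 ± 0.07, Smoc2, a calcium-binding matrix protein, by 2.40 ± 0.05, and Nid2, a nidogen that links laminin to type IV collagen, by 2.03 ± 0.06 on the log2 scale. Elastic fibre genes were mixed, with 6 of 15 higher and 5 lower (median 0.02). Fbn2, the fibrillin of early development, rose by 1.96 ± 0.05 and Fbln5, an elastin-binding fibulin, by 1.10 ± 0.05, while Ltbp2, a microfibril protein, changed by −1.12 ± 0.14. Fbn2 and Fbn1 therefore moved in opposite directions.

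Of 24 other proteoglycans and glycoproteins, 12 rose and 9 fell (median 0.18). Spp1, osteopontin, changed by −2.75 ± 0.17, Cd44, the hyaluronan receptor, by −2.02 ± 0.05, and Spon2, a spondin, by 1.72 ± 0.09 on the log2 scale. Of 20 integrin and collagen receptor genes, 9 rose and 7 fell (median 0.15). The collagen-activated receptor kinases Ddr1 (1.10 ± 0.05) and Ddr2 (0.83 ± 0.05) both rose, and Itga3, a laminin-binding integrin chain, fell (−0.73 ± 0.05).

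Of 18 genes of the TGF-beta pathway, a main inducer of matrix genes in fibroblasts, 10 rose and 7 fell (median 0.16). The ligand gene Tgfb2 (1.60 ± 0.07) and the signal transducer Smad3 (1.27 ± 0.05) rose. Another ligand gene, Tgfb1 (−1.26 ± 0.10), and another transducer, Smad2 (−0.85 ± 0.06), fell. Activity of the pathway was not tested. Of 24 other proteases and inhibitors, 12 rose and 9 fell (median 0.19). Plaur, the urokinase receptor, changed by −2.88 ± 0.08, Adamts4, an aggrecanase, by 2.61 ± 0.13, and Plat, tissue plasminogen activator, by 2.02 ± 0.05 on the log2 scale.

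In HPC-7 the matrix genes were largely silent. Of the 43, 14 had no count in any library, 19 more had 1 to 10 counts in all 6, and 6 reached a mean of 1 CPM. A count of 0 in 1 library allows up to 0.178 to 0.296 CPM (3 counts, counting error only). The members' share of each library was 0.00702% to 0.00771% in Control and 0.00966% to 0.0102% in HSP90i. Serpinh1 had 1 count in the 6 libraries together, and no change of it could be measured in this line. Of 7 members tested, 5 rose and 0 fell (5 and 0 also with DESeq2, and 5 and 0 at an unadjusted p under 0.05), where 36.5% of all 11703 genes were called higher and 36.6% lower. The groups did not overlap for 5 of the 7, against 77.4% of all genes. The median log2 fold change of the 7 was 1.18, against −0.0024 over all genes, but a gene this rare can pass the filter on low counts through its higher group alone. Summed blood progenitor markers also differed between the groups (3159 to 3190 CPM in Control, 4866 to 5342 CPM in HSP90i). Called higher were Kit (987 to 2522 CPM), Tal1 (361 to 744 CPM), Ptprc (255 to 528 CPM), Runx1, Gfi1b, Spi1 and Fli1. Cd34 (342 to 56.7 CPM) and Lyl1 (344 to 159.8 CPM) were called lower, and Gata2 and Lmo2 were not called. Sums also differed for erythroid and megakaryocyte markers (650.4 to 682 against 1176 to 1435 CPM, 6 of 7 at 1 CPM or more). Among these Pf4 fell (304 to 135 CPM). Sums of endothelial markers (18.4 to 19.4 against 59.2 to 69.6 CPM, 2 of 6, Tek and Emcn at 0) differed as well. So did those of macrophage markers (35.5 to 40.1 against 70.3 to 86.9 CPM, 3 of 7 at 1 CPM or more). Fibroblast markers summed to 567 to 632 against 478 to 497 CPM, with Thy1, Twist1, Twist2 and Tcf21 at 0. Among them Vim (369 to 175 CPM), Cdh2 and S100a4 fell, and Pdgfrb (192 to 293 CPM) rose. The part of these marker changes in the result was not tested.

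Plod1 measured 5.47, 6.84 and 7.60 CPM in Control and 15.6, 14.7 and 14.2 CPM in HSP90i libraries (1.18 ± 0.14 on the log2 scale, adjusted p = 3.68e-05). Bmp1 measured 7.53, 6.07 and 7.93 CPM against 12.4, 10.2 and 12.1 CPM (0.68 ± 0.14, adjusted p = 0.00167). Mmp14 measured 3.12, 3.25 and 2.25 CPM against 8.65, 5.29 and 6.21 CPM (1.23 ± 0.23, adjusted p = 0.00071). All 3 were higher in every HSP90i library. Col7a1 measured 1.59, 1.45 and 1.84 CPM against 4.94, 3.23 and 5.66 CPM (1.51 ± 0.25, adjusted p = 0.000317), and Mmp19, below 0.5 CPM in each Control library, went from 0.285 ± 0.129 to 1.10 ± 0.192 CPM (SD, n = 3; 2.0 ± 0.39, adjusted p = 0.000981).

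Plod2 was not called, at 53.6, 51.2 and 46.6 CPM in Control and 48.3, 61.4 and 52.2 CPM in HSP90i libraries (0.09 ± 0.10, adjusted p = 0.433). Col18a1 was not called either, at 2.94, 3.25 and 3.26 CPM against 3.05, 2.55 and 3.47 CPM (−0.05 ± 0.19, adjusted p = 0.853). The groups overlapped for both genes. Col5a2 did not pass the filter on low counts, with 5, 2 and 1 counts in Control and 26, 8 and 19 counts in HSP90i libraries. These counts did not overlap between the groups.

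Whether MEF and HPC-7 responded differently was tested with an interaction term of line and treatment in the 12 mouse libraries. Of 42 members in that fit, 4 had a response in MEF above that in HPC-7 and 3 below it, where 25.4% and 17.8% of 13720 genes were called in these directions. Only 6 members were at 1 CPM or more in both lines, and of these 3 were above and 2 below. Most of the others had next to no counts in HPC-7 (0 in the 6 libraries together for Lox and for Col5a3). For them a difference could hardly be called, so a missing call does not mean an equal response. The shares over all genes are therefore no measure for the 42, and shares over genes at 1 CPM in both lines were not counted. Col18a1 (difference of the log2 fold changes 2.05 ± 0.14, adjusted p = 8.4e-08), Plod2 (1.49 ± 0.12, adjusted p = 2.11e-07) and Bmp1 (0.65 ± 0.13, adjusted p = 0.00101) rose more in MEF. Col7a1 (−0.75 ± 0.22, adjusted p = 0.0131) and Mmp14 (−0.83 ± 0.20, adjusted p = 0.00422) rose more in HPC-7. For Plod1 no difference was called (−0.11 ± 0.13, adjusted p = 0.572). The other 2 calls, Col5a2 and Col1a2, rest on 61 and 6 counts in HPC-7, where neither gene passed the filter on low counts, so no HPC-7 response can be read for them.

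The Bmp1 difference was not called without HPC-7 Control replicate 1 or 3 (highest adjusted p over 19 alternatives 0.0613, lowest difference 0.38), and the Col1a2 difference was not called without HPC-7 Control replicate 1 (adjusted p = 0.272). Without HPC-7 Control replicate 1 there were 2 members above, and without HPC-7 Control replicate 3 there were 5 below, among them Plod1 (adjusted p = 0.0186). Over all genes the split of interaction calls depended on scaling, with 58.8% above at the main setting, 47.3% with RLE factors, 51.2% with library size alone, 50.5% with upper quartile factors and 47.0% with DESeq2, and with 39.2% above without HPC-7 Control replicate 1 or 3. The median of all genes' differences was 0.109 with the main TMM scaling and −0.012 with RLE. Line and dose cannot be told apart in this comparison.

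In K562, 12 of 44 matched rows had no count (BGN has 2 rows, both at 0) and 18 members reached a mean of 1 CPM. The members' counts went from 0.0580% to 0.0680% of each Control library to 0.129% to 0.133% of each HSP90i library. Without SERPINH1 the shares were 0.0426% to 0.0497% and 0.0536% to 0.0593%, so most of the added counts came from that gene. Of 18 members tested, 5 rose and 3 fell, where 5.11% of all 13456 genes were called higher and 5.97% lower. That background itself moved with single libraries, from 688 genes higher and 803 lower to 1922 and 1995 with Control replicate 1 left out. With Control replicate 2 left out it was 241 and 328, and with HSP90i replicate 1, 2 or 3 left out it was 173 and 183, 177 and 171, or 202 and 216. Control replicate 1 stood apart from the other Control libraries (chi-square per gene 39.8 and 50.4, against 5.03 between those 2). The groups did not overlap for 12 of the 18, against 35.2% of all genes, and the median log2 fold change was −0.19, against −0.02 over all genes. Of all K562 calls 46.1% were higher at the main scaling, 26.7% with library size alone and 35.3% with upper quartile factors.

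SERPINH1 had the widest K562 rise of the members. It measured 187, 144 and 138 CPM in the Control libraries and 785, 792 and 727 CPM in the HSP90i libraries, a log2 fold change of 2.30 ± 0.15 (adjusted p = 7.86e-05). PLOD1 measured 93.6, 61.2 and 69.9 CPM in the Control libraries and 216, 198 and 217 CPM in the HSP90i libraries, a log2 fold change of 1.49 ± 0.17 (adjusted p = 0.00169). MMP19 rose from 2.03 ± 0.145 to 5.77 ± 0.768 CPM (SD, n = 3; 1.51 ± 0.22, adjusted p = 0.00456). These 3 calls held with each library left out in turn.

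PLOD2 measured 37.2, 58.3 and 62 CPM in the Control libraries and 97.3, 105 and 104 CPM in the HSP90i libraries, a log2 fold change of 0.96 ± 0.19 (adjusted p = 0.0175). COL1A1 measured 6.99, 5.78 and 5.98 CPM in the Control libraries and 10.2, 10 and 10.9 CPM in the HSP90i libraries, a log2 fold change of 0.73 ± 0.17 (adjusted p = 0.0286). The 3 members that fell were COL7A1 from 9.28 ± 2.22 to 5.07 ± 0.255 CPM (−0.87 ± 0.22, adjusted p = 0.0401), LOXL2 from 2.71 ± 0.239 to 1.29 ± 0.0524 CPM (−1.07 ± 0.24, adjusted p = 0.0284) and MMP14 from 19.7 ± 1.57 to 13.2 ± 1.07 CPM (−0.58 ± 0.15, adjusted p = 0.0393; SD, n = 3). All 5 were lost without any 1 of the HSP90i libraries (adjusted p from 0.0738 to 0.172), which left 3 members higher and 0 lower. Without Control replicate 2 all but COL7A1 were lost (3 higher, 1 lower), and without Control replicate 3 COL1A1, COL7A1 and LOXL2 were lost (adjusted p = 0.0523, 0.0560 and 0.0512). Without Control replicate 1 there were 6 higher and 5 lower. LOXL2 was also not called with DESeq2 (adjusted p = 0.0632), nor MMP14 without the filter on low counts (adjusted p = 0.0619).

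In K562 10 tested members were not called. COL18A1 was at 65 ± 9.57 CPM in Control and 61.1 ± 5.44 CPM in HSP90i libraries and BMP1 at 31.9 ± 1.96 CPM in Control and 25.6 ± 2.68 CPM in HSP90i libraries (SD, n = 3). TIMP1 measured 143, 62.3 and 68.3 CPM in Control and 72.7, 68.7 and 69.6 CPM in HSP90i libraries, with Control replicate 1 far above the other 5. The glycoprotein genes SPARC (35.1 ± 3.42 to 41.9 ± 3.45 CPM; 0.25 ± 0.14 on the log2 scale), THBS1 (24.6 ± 10.8 to 16 ± 1.84 CPM; −0.62 ± 0.31), FN1 (6.26 ± 2.92 to 7.16 ± 1.66 CPM; 0.21 ± 0.33) and FBLN2 (1.75 ± 0.388 to 0.996 ± 0.295 CPM; −0.81 ± 0.33) did not pass the test. Nor did COL5A2 (2.64 ± 0.922 to 1.85 ± 0.515 CPM; −0.50 ± 0.33), COL4A2 (0.72 ± 0.106 to 1.15 ± 0.0727 CPM; 0.65 ± 0.32) and LOXL3 (13.4 ± 0.849 to 11.1 ± 1.72 CPM; −0.28 ± 0.17). Without Control replicate 1, THBS1 (−0.92, adjusted p = 0.000289) and SPARC (0.32, adjusted p = 0.0427) were called. FBN1, with 73 counts in 6 libraries, did not pass the filter on low counts.

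Side by side, PLOD1 rose by 0.96 ± 0.05 in MEF, 1.18 ± 0.14 in HPC-7 and 1.49 ± 0.17 in K562, and MMP19 by 1.60 ± 0.06, 2.0 ± 0.39 and 1.51 ± 0.22 on the log2 scale. Both were called higher in each line, but Mmp19 had 3, 5 and 3 counts in the HPC-7 Control libraries and was not tested there with a filter of 1 CPM in 3 libraries. SERPINH1 and PLOD2 were called higher in MEF and K562. COL7A1 and MMP14 were called higher in both mouse lines and lower in K562. The K562 calls of PLOD2, COL7A1 and MMP14 were each lost when any 1 HSP90i library was left out. Differences between K562 and the mouse lines were not tested, since species, line and dose changed together.

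**Figure D4:**
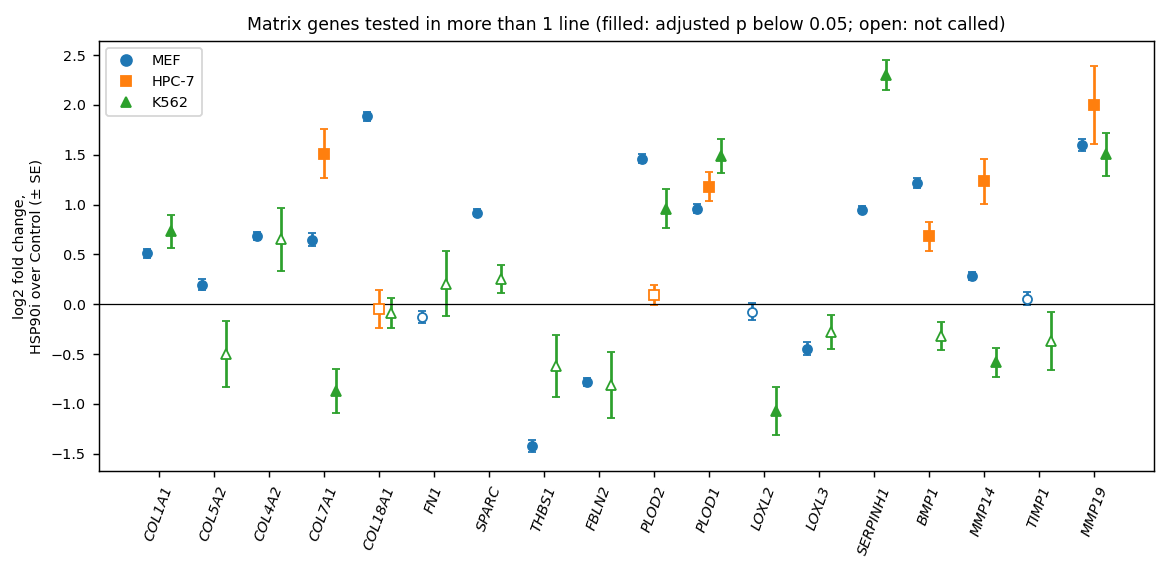
The vertical axis is the log2 fold change of HSP90i over Control with its SE (n = 3 per group) for the members tested in more than 1 line, with blue circles for MEF, orange squares for HPC-7 and green triangles for K562. PLOD1 and MMP19 have filled points above 0 in all 3 lines, and COL7A1 and MMP14 have filled points above 0 in the mouse lines and below 0 in K562. Mmp19 had only 3, 5 and 3 counts in the HPC-7 Control libraries. The K562 calls of COL7A1 and MMP14 were lost when any 1 HSP90i library was left out.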

How the data were processed

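The authors deposited raw counts for each gene and library, not normalized. The submitters' processing notes name TopHat2 2.0.13, featureCounts, Trim Galore, Picard, Bowtie2, MACS2 and DESeq2, and as builds GRCm38, mm10, GRCh37 and hg38, without saying which served what. Whether counting used strand, and the build of the K562 counts, are not given in the sources used here. A K562 HSP90 peak list was not used here. Columns of other samples numbered 0. Samples were grouped by title.

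Genes passing edgeR's filterByExpr were scaled with TMM and tested with edgeR 4.0.16 (quasi-likelihood, R 4.3.3) within each line over all genes, adjusted by Benjamini-Hochberg and called below 0.05. CPM are TMM-scaled, errors are SD over 3 libraries, and log2 fold changes carry the SE. This SE is the absolute log2 fold change divided by the square root of the F statistic of the quasi-likelihood test. Procedures were tested on simulated data. The biological coefficient of variation was 0.0835 in MEF, 0.0900 in HPC-7 and 0.172 in K562.

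Every member was named. Values in each library were given for up to 4 members a role by mean MEF CPM, and in HPC-7 and K562 members of at least 1 CPM were named with their means or their values in each library. From each pathway list the 3 called MEF genes with the largest change at a mean log2 CPM of at least 3 were named. A gene chosen by this rule is not reported here. Other genes given by library, Tgfb1 and Smad2, the members below 1 CPM that were named and the genes of the closing observations were chosen after their values were seen. Members and lists were chosen with earlier results of these data known. Alternatives were RLE, upper quartile and no scaling factors beyond library size, no filter, a filter of 1 CPM in 3 libraries, DESeq2 1.42.0, a block for the replicate number, leaving out each library, and a fit of the 12 mouse libraries together. Replicate numbers were not used as pairs in the main fits. Positions and promoters are RefSeq's, GRCm38.p6, counted from 1. Plots used matplotlib 3.10.9 (Python 3.11.15).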

Additional observations from a re-analysis of the deposited data

Results flagged for a closer look

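The 7 members below were called for unequal responses in MEF and HPC-7 by the interaction of line and treatment over the 12 mouse libraries, given as the MEF minus the HPC-7 log2 fold change with its SE. Of these differences, 4 were positive. COL18A1, at 2.05 ± 0.14 (adjusted p = 8.4e-08), and PLOD2, at 1.49 ± 0.12 (adjusted p = 2.11e-07), rose in MEF and were not called in HPC-7, and both were called in all 19 alternatives. BMP1, at 0.65 ± 0.13 (adjusted p = 0.00101), rose in both lines and was called in 17 of 19 alternatives. COL1A2, at 4.39 ± 1.32 (adjusted p = 0.0173), rests on 5, 0 and 1 counts in the HPC-7 Control libraries and 0, 0 and 0 in the HSP90i libraries. It was called in 18 of 19 alternatives, its fitted size depends on a group with no count, and no HPC-7 response can be read for it.

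The other 3 differences were negative, each called in all 19 alternatives. COL5A2 was at −2.57 ± 0.43 (adjusted p = 0.000252), on 61 counts in HPC-7, where it did not pass the filter on low counts. The alternatives refit these same few counts, and no HPC-7 response can be read for COL5A2. COL7A1, at −0.75 ± 0.22 (adjusted p = 0.0131), and MMP14, at −0.83 ± 0.20 (adjusted p = 0.00422), rose in both lines.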

How the results depend on the processing

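Member counts in MEF stayed between 21 and 23 higher and between 13 and 16 lower over all alternatives, and 1 HPC-7 member was lower in the 12-library fit (COL1A2, on 6 counts). Leaving out single libraries gave 3 to 6 higher and 0 to 5 lower members in K562. For the interaction it gave 2 to 4 members above (2 without HPC-7 Control replicate 1) and 3 to 5 below (5 without HPC-7 Control replicate 3). Same-numbered libraries did not all deviate together in MEF (correlations 0.268, −0.223 and −0.245) or HPC-7 (0.0064, 0.0235 and −0.0898). In K562 these correlations were all positive (0.281, 0.0417 and 0.451), against −0.387 to 0.169 between libraries of different number. The labels do not say that the numbers mark pairs, so the main fits took them only as names. With the replicate block, K562 had 872 genes higher and 938 lower, against 688 and 803 without it. With the replicate block the counts of higher and lower members were 22 and 15 in MEF, 5 and 0 in HPC-7, 5 and 3 in K562 and, above and below, 4 and 3 for the interaction. For the ratios of chains a sign-flip test over same-numbered pairs gave 0.25, the smallest it can give.

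Signs changed for members near 0, none of them called at the main setting. With upper quartile factors, LOXL2 in MEF was at 0.028 and COL18A1 in HPC-7 at 0.0073, and LOXL2 was at 0.040 in the 12-library fit of the mouse lines. Leaving out single libraries gave in MEF LOXL2 from −0.14 to 0.024 (without Control replicate 3), FBLN1 from −0.016 (without HSP90i replicate 2) to 0.073 and TIMP1 from −0.013 (without HSP90i replicate 3) to 0.13. In HPC-7 it gave COL18A1 from −0.15 to 0.043 and PLOD2 from −0.020 to 0.16, both changing sign without HSP90i replicate 2. In K562 it gave TIMP1 from −0.59 to 0.11, FN1 from −0.0099 to 0.63 and COL18A1 from −0.16 to 0.039, all changing sign without Control replicate 1. MMP2 in MEF was not called with upper quartile factors or in the 12-library fit (−0.08, adjusted p = 0.417), nor was COL8A1 (−0.15, adjusted p = 0.139, and −0.13, adjusted p = 0.198). POSTN was called in 7 alternatives, and FN1 was called without the filter on low counts (adjusted p = 0.0246). The cause was not tested. A count of 0 in 1 library allows up to 0.178 to 0.296 CPM in HPC-7 and 0.274 to 0.378 CPM in K562.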

Other observations

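In K562, genes of collagen hydroxylation, folding, export and trimming had 6 of 23 higher and 1 lower, against 5.11% and 5.97% of all genes. P4HA2 (2.40 ± 0.13) and P4HA1 (1.22 ± 0.13), prolyl 4-hydroxylase chains, SEC24D (1.88 ± 0.25) and MIA3 (0.67 ± 0.14), of procollagen export, FKBP14 (0.86 ± 0.19) and PDIA3 (0.68 ± 0.12) were higher, and ADAMTS14, a procollagen N-proteinase, was lower (−2.27 ± 0.14). The other 7 matrix lists together had 3 of 73 higher and 9 lower in K562. The K562 calls of these lists were not repeated with single libraries left out, which moved the number of all genes called in this line. In HPC-7 the hydroxylation and folding list had 6 of 17 higher and 7 lower, and the other 7 lists together had 28 of 55 higher and 11 lower, against 36.5% and 36.6% of all genes. The differences between lines and between lists were not tested.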
